A study of Homo sapiens with 30 samples.

Results

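The genes described here are the protein-coding genes of chromosome 19 whose symbol starts with ZNF in the GENCODE annotation lifted to hg19. There were 249 of them among 20098 protein-coding genes, of which another 1231 lie on chromosome 19. Another 267 genes with a ZNF symbol lie on other chromosomes and were used for comparison. A peak was assigned to a gene when it overlapped the gene span extended by 2 kb on each side. The choice used only symbol and position and no measured value. Among the 249 genes, 55 overlapped another of them, and 3 were read-through genes (ZNF559-ZNF177, ZNF625-ZNF20 and ZNF816-ZNF321P), so neighbouring genes shared some peaks.

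HEK293T cells, derived from human embryonic kidney and transformed with the SV40 large T antigen, received antisense oligonucleotides (ASOs) that deplete a chosen RNA and were collected after 48 h. H3K9me3 was profiled with a negative control ASO (NC) and upon depletion of the long noncoding RNA LINC00662 with a mix of ASOs (ΔLINC00662), and H3K27me3 was profiled with NC and upon depletion of LINC00641 (ΔLINC00641) or SETD5-AS1 (ΔSETD5-AS1) with 1 ASO each. Each of these 5 groups had 3 ChIP and 3 input replicates (30 samples in 10 groups with the inputs), all from the same line. The authors merged the replicates before they called peaks, so there was 1 peak list for each ChIP group, no list carried a replicate error, and no difference between groups was tested. The estimated depth of the lists was 34.6 to 45.01 M fragments, with 42.2 M for H3K9me3 in NC and 34.6 M in ΔLINC00662, where M is mega. The cell line and the depletion of the RNAs were not checked, as peak lists hold no RNA measurement.

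Most ZNF genes of chromosome 19 encode transcription repressors with a KRAB domain near the start of the protein and a tandem array of C2H2 zinc fingers, which bind DNA, near its end. The array is usually encoded by the last exon. KRAB recruits TRIM28 (KAP1), which brings the methyltransferase SETDB1 and so H3K9me3, the mark of constitutive heterochromatin. The genes arose by repeated duplication and stand in clusters. They are known as unusual targets of H3K9me3 themselves, with the mark over the 3′ exons, where ZNF274 is known to recruit SETDB1. H3K27me3, placed by Polycomb repressive complex 2, marks facultative heterochromatin.

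The repeated array is shown by a stretch of zinc finger codons from 3 members with different H3K9me3 in their last exon. ZNF14 held the H3K9me3 peak of the largest −log10 q among the 249 genes, ZNF550 kept H3K9me3 over all its finger codons in both lists, and the last exon of ZNF43 had no H3K9me3 peak in either list. Each sequence is read 5′ to 3′ on the coding strand, which is the minus strand for all 3, from hg19 and lies in the coding part of the last exon. Capitals mark the codons of the conserved linker that joins a finger to the next (threonine, glycine, glutamate or valine, lysine or arginine, proline), found by a search of the translated sequence. The positions are chr19:19822164-19822409 for ZNF14, chr19:58058412-58058663 for ZNF550 and chr19:21991138-21991389 for ZNF43.
ZNF14: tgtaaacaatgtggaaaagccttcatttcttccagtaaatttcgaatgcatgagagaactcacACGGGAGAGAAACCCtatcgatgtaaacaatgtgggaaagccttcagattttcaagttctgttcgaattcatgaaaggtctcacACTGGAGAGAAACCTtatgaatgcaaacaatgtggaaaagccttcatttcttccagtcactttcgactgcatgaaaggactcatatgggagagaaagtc
ZNF550: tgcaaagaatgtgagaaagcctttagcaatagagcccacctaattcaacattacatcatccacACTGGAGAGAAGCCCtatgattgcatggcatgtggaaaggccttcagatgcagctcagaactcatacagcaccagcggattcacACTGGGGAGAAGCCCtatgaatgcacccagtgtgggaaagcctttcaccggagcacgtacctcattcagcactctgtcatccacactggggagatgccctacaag
ZNF43: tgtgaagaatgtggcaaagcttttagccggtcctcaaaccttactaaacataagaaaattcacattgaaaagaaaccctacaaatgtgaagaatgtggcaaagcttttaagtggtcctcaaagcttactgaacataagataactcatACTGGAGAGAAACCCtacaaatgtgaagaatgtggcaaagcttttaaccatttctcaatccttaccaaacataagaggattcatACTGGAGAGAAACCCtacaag
Each stretch held 2 such linkers. The GC content was 40.2% in the ZNF14 stretch, 50% in that of ZNF550 and 37.3% in that of ZNF43. The ZNF14 stretch lay wholly within an H3K9me3 peak in NC and wholly outside peaks in ΔLINC00662, the ZNF550 stretch lay within a peak in both lists, and the ZNF43 stretch lay in none. The arrays of different members resemble each other closely, and no filter on mapping quality was stated, so fragments could have been placed in the wrong copy.

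In NC, H3K9me3 was found on nearly all of these genes. A peak overlapped 220 of the 249 genes (88.4%, Wilson 95% interval 83.8 to 91.8%), against 34.9% of all protein-coding genes, 19.2% of the other genes of chromosome 19 and 62.5% of ZNF genes elsewhere. Such intervals treat neighbouring genes or peaks as if they were separate draws and hold counting error alone. The peaks covered 22.7% of the base pairs of the gene spans, against 1.53% over all protein-coding genes, 3.12% over other genes of chromosome 19 and 6.84% over ZNF genes elsewhere. In all, 2275 peaks lay in the 249 genes, which were 48.1% of the peaks of the chromosome. A gene had a median of 9 peaks, with the most, 45, in ZNF420. The quartiles of the covered share of a gene were 9.85 and 38.5%, with a median of 25.2%, and 27 genes were covered over more than 50% of their span.

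The presence of the mark differed with the protein type. A KRAB-like pattern was found in the translated sequence of 207 members (83.1%), and 201 of these had an H3K9me3 peak in NC, against 19 of the 42 members without the pattern. The median share of the span in peaks was 27.7% with the pattern and 0% without it. Of the 29 members with no H3K9me3 peak in NC, 23 lacked the pattern, among them ZNF358, ZNF414, ZNF507, ZNF574 and ZNF628. The pattern is a short string, so a diverged KRAB domain would be missed. The number of zinc fingers, with a median of 12 per member and a range from 0 (in the read-through genes ZNF625-ZNF20 and ZNF816-ZNF321P) to 36, was also compared. The last exon held a peak in 40 of 55 members with 5 to 9 fingers, in 77 of 108 members with 10 to 14 and in 53 of 75 with 15 or more, but in 1 of 11 members with 0 to 4. Across the 249 members the Spearman correlation between the number of fingers and the covered share of the last exon was 0.10, given as a description since the members share libraries and clusters.

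**Figure D1:**
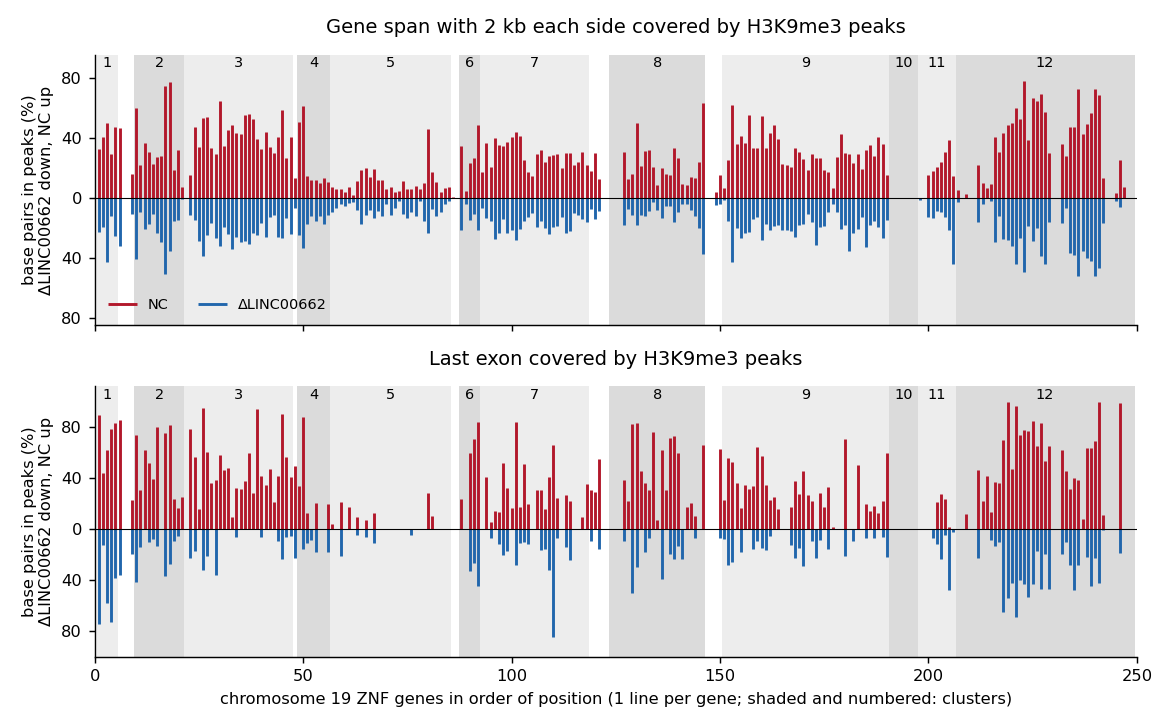
Percent of base pairs in H3K9me3 peaks for each of the 249 ZNF genes of chromosome 19 in order of position, for the gene span with 2 kb on each side (top) and for the last exon (bottom). Lines upward are NC and lines downward are ΔLINC00662, and shaded blocks 1 to 12 are the clusters. The span lines are of similar height in both directions for cluster 5, cluster 10 has none, and in the bottom panel most downward lines are shorter than their upward partner.

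The 8 members with the largest covered share in NC were ZNF134 (77.6%), ZNF121 (76.8%), ZNF426 (74.6%), ZNF274 (72.6%), ZNF256 (72.2%), ZNF671 (69.0%), ZNF544 (68.3%) and ZNF551 (66.2%). ZNF121 and ZNF426 are in cluster 2, and the other 6 are in cluster 12. In ΔLINC00662 all 8 were covered less, at 49.3, 35.5, 50.9, 52.3, 52.1, 39.1, 46.9 and 28.6% in the same order. Since they were chosen for their NC values, a lower value in the other list says little by itself. Their number of peaks was higher in some and lower in others. The number of peaks in NC and in ΔLINC00662 was 10 and 14 for ZNF121, 7 and 11 for ZNF426, 16 and 25 for ZNF544, and 6 and 4 for ZNF256. In ZNF544 the widest NC peak of any member, 14967 bp, and in ZNF121 a peak of 14070 bp were met by several shorter peaks. Among all peaks of the members, 7 of 2275 exceeded 5 kb in NC and 0 of 1910 did in ΔLINC00662. The share of such peaks over the whole lists is not given here. Shorter peaks in ΔLINC00662 were not particular to the members. The median width was 487 and 418 bp over all protein-coding genes in NC and ΔLINC00662, and 613 and 477 bp in ZNF genes elsewhere.

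In the genes with the strongest NC peaks, the ΔLINC00662 peak given below had fewer summit fragments and a lower fold enrichment. As the genes were chosen for their NC values, this too is only a description. Fragment numbers were not scaled for depth, which was 42.2 M in NC and 34.6 M in ΔLINC00662. The ΔLINC00662 summit can also lie at another place in the gene. The peak with the largest −log10 q in NC (39.5) covered the last exon of ZNF14 at chr19:19821470-19823780, with 57 fragments at its summit and a fold enrichment of 10.96 over an input at the genome-wide level. In ΔLINC00662 the ZNF14 last exon held 1 peak of 23 fragments and 5.33-fold enrichment, at a −log10 q of 8.67. The covered share of that exon was 88.3% in NC and 15.4% in ΔLINC00662, and none of the zinc finger codons of ZNF14 remained in a peak. The peak of ZNF121 at chr19:9672983-9687052 had 53 fragments and a fold enrichment of 10.2 in NC, while the strongest peak of the gene in ΔLINC00662 had 42 fragments and 5.20-fold enrichment over an input 2.07 times the genome-wide level. ZNF490 and ZNF791 overlap each other and shared their strongest peak, with 57 fragments in NC (fold enrichment 7.60) and 37 in ΔLINC00662 (5.58). The promoter peak of ZNF611 had 59 fragments and a fold enrichment of 7.0 in NC against 35 fragments and 4.31 in ΔLINC00662.

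Members with a known role differed among themselves. ZNF274, which recruits SETDB1 to the 3′ ends of other ZNF genes, was itself covered over 72.6% of its span in NC and 52.3% in ΔLINC00662, and its last exon over 69.3 and 22.2%. Of its 14 NC peaks, 13 were found again in ΔLINC00662. ZNF91, a repressor of SVA retrotransposons, had 24 peaks over 17.0% of its span in NC and 14 peaks over 7.86% in ΔLINC00662. ZNF93, a repressor of LINE-1 elements, had 12 peaks in each list and was covered over 11.6 and 15.3% of its span, the higher value being that of ΔLINC00662. ZNF43 had 13 peaks in each list (11.7 and 12.5% of the span), and ZNF568 had 26 and 20 peaks (14.2 and 10.3%). The last exons of ZNF43 and ZNF568 held no peak in either list. ZNF331, an imprinted gene, had 13 and 15 peaks over 15.1 and 14.6% of its span, but its last exon was covered over 59.5% in NC and 21.9% in ΔLINC00662. Thus the last exon of ZNF331 differed between the lists while its span hardly did.

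Along the chromosome the members fell into clusters, in which neighbouring members lay within 250 kb of each other. There were 12 clusters of 5 or more members, which held 233 members, and 16 members stood outside. H3K9me3 differed widely between clusters. In NC the peaks covered 39.4% of the member spans in cluster 1 (ZNF554 to ZNF77), 37.9% in cluster 3 (ZNF653 to ZNF791, 26 members) and 34.0% in cluster 12 (ZNF264 to ZNF446, 43 members), but only 10.4% in cluster 5 (ZNF737 to ZNF254, 29 members). All 29 members of cluster 5 had a peak, yet the last exon held a peak in 8 of them and was covered over 4.11% in all. In cluster 3 the last exon held a peak in 25 of 26 members and was covered over 47.0%. Cluster 5 had the lowest GC content (40%, against 45.1% in cluster 3 and 46.8% in cluster 12). Cluster 10 (ZNF628 to ZNF581), whose 7 members all lack the KRAB-like pattern and have a GC content of 57.5%, had no H3K9me3 peak in either list.

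Within the clusters the mark was not limited to the genes. The sequence between members was covered over 16.3% in NC, against 24.8% of the member spans in clusters and 2.03% of the chromosome outside clusters and members. In ΔLINC00662 these values were 13.4, 16.3 and 1.61%.

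Upon depletion of LINC00662, almost the same number of members carried a peak, but less of their sequence was covered. A peak overlapped 218 members (87.6%), against 30% of all protein-coding genes, and 217 members had a peak in both lists. ZNF460, ZNF17 and ZNF324B had peaks in NC alone, and ZNF787 in ΔLINC00662 alone. The covered share of the spans was 14.8%, against 22.7% in NC. It was lower in 191 members, higher in 30 and equal in 28, whereas it was lower in 29.9% of all protein-coding genes, most of which had no peak. Over all protein-coding genes the covered share was 0.872% against 1.53% in NC, over other genes of chromosome 19 it was 2.13% against 3.12%, and over ZNF genes elsewhere it was 3.70% against 6.84%. The members held 1910 peaks against 2275, a ratio of 0.840, with a median width of 511.5 bp against 608 bp. This ratio changed with the peaks compared. It was 1.04 when both whole lists were cut to the same number of their strongest peaks, and 0.980 when peaks within 1 kb were merged. Lower depth and fewer called peaks in ΔLINC00662 moved with the loss of covered sequence, and their part in it was not tested.

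Members retained more of their NC peaks than the rest of the genome. A ΔLINC00662 peak overlapped 1358 of their 2275 NC peaks, which is 59.7% (Wilson 95% interval 57.7 to 61.7%). Over the whole list the share was 37.9%, on chromosome 19 outside the members 51.95%, outside chromosome 19 36.8%, and in ZNF genes elsewhere 53.9%. Members held stronger peaks, with a median −log10 q of 4.97 against 4.30 over the list. When retention was averaged over 10 strength groups with the weights of the members, it was 56.2% on chromosome 19 outside the members and 41.6% outside chromosome 19, both still below 59.7%. Peak density was not matched. ΔLINC00662 peaks numbered 228 per Mb in members, 33.4 in other genes of chromosome 19 and 16.0 over all protein-coding genes. Where peaks are denser, an overlap of 1 bp is more likely by position alone, in either direction, and its part was not tested. In the opposite direction, 78.2% of the 1910 ΔLINC00662 peaks of members overlapped an NC peak, and 21.8% (417 peaks) had none. Over the whole ΔLINC00662 list 44.4% had none, on chromosome 19 outside the members 40.9%, and in ZNF genes elsewhere 20.1%. Peaks in pairs, 1063 in all, had about the same fold enrichment in both lists. Their median log2 ratio, ΔLINC00662 to NC, was 0.026 on the log2 scale, with quartiles of −0.27 and 0.33. Only peaks called in both lists with 1 partner each way form a pair, so lost or split peaks do not enter this ratio.

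Individual members ranged from the loss of nearly all peaks to the loss of none. Among members with 5 or more NC peaks, the lowest retention was in ZNF486 and ZNF846 (1 of 6 peaks each) and in ZNF536 (1 of 5). ZNF846 was covered over 7.12% of its span in NC and 0.706% in ΔLINC00662, where its only peak had 12 fragments. ZNF486 was covered to a similar extent in both lists, 10.2 and 11.8%, as 7 of its 8 ΔLINC00662 peaks had no NC partner. ZNF536, a regulator of neuronal differentiation 489 kb long, had peaks over 0.533 and 0.111% of its span. At the other end, ZNF426 (7 peaks), ZNF550 (9) and ZNF649 (10) retained every NC peak. They were taken by symbol from members tied at this share, among them ZNF671 (5 peaks). ZNF649 was still covered less, over 62.1% of its span in NC and 42.6% in ΔLINC00662, as its peaks became shorter.

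The difference between the lists was largest over the last exon. In NC 29.05% of the last exons' base pairs lay in H3K9me3 peaks, more than of introns (21.2%), and in ΔLINC00662 11.4%, less than of introns (14.6%). The ratio of covered base pairs, ΔLINC00662 to NC, was therefore 0.393 for last exons and 0.690 for introns. It was 0.650 for promoters (within 1 kb of a transcription start), 0.732 for first exons, 0.615 for middle exons, 0.637 for the 2 kb upstream and 0.633 for the 2 kb downstream. In NC the 2 kb upstream, promoters and the 2 kb downstream were covered over 28.7, 26.6 and 24.5%. The whole last exon thus stood little above the 2 kb upstream in NC. Within the last exon the coding part changed more, from 35.6 to 11.2% (ratio 0.313), than the noncoding part, from 24.4 to 11.6% (0.474). The codons of the zinc fingers, 98.0% of which lie in last exons, were the part with the most H3K9me3 in NC, 39.7%, and were covered over 11.8% in ΔLINC00662, a ratio of 0.298. Other codons were covered over 28.7 and 11.8%. When both lists held the same number of their strongest peaks, the ratios were 0.432 for last exons and 0.789 for introns.

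**Figure D2:**
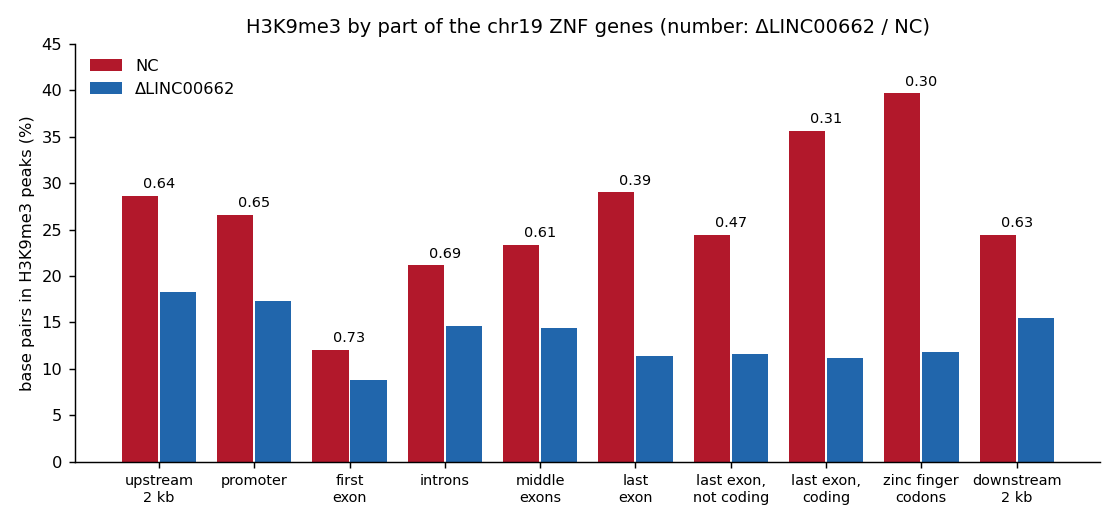
Percent of base pairs in H3K9me3 peaks by part of the 249 genes, in NC (red) and ΔLINC00662 (blue), with the ratio above each pair. The zinc finger codons and the coding part of the last exon have the highest red bars, 39.7 and 35.6%. The whole last exon follows at 29.05% and the 2 kb upstream at 28.7%. The blue bars of the zinc finger codons and the whole last exon, 11.8 and 11.4%, are lower than that of introns at 14.6%.

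Counted by gene, the last exon held a peak in 171 members in NC (68.7%, Wilson 95% interval 62.7 to 74.1%) and in 126 in ΔLINC00662 (50.6%, 44.4 to 56.8%), against 4.21 and 3.25% of all protein-coding genes. It was marked in both lists in 119 members, in NC alone in 52, in ΔLINC00662 alone in 7 and in neither in 71. The covered share of the last exon was lower in ΔLINC00662 in 165 members and higher in 13, whereas it was lower in 3.58% and higher in 1.41% of all protein-coding genes. Most of the latter had no last exon peak in NC that could fall. Of all protein-coding genes, 846 had such a peak and 719 had a lower share, against 171 and 165 members. In 62 members more than 50% of the last exon was covered in NC, and in 8 in ΔLINC00662. A promoter peak was found in 189 members in NC (75.9%) and in 169 in ΔLINC00662 (67.9%), against 8.95 and 7.28% of all protein-coding genes. All zinc finger codons lay in peaks in 46 of the 247 members with fingers in NC and in 2 in ΔLINC00662. Of these 46, 13 had no finger codon in a peak in ΔLINC00662 and 2 had all of them, and members chosen for full coverage in NC could only stay or fall. Among members with a last exon peak in NC, 69.6% also had one in ΔLINC00662, which was not below the 57.3% of all protein-coding genes or the 58.2% of other genes of chromosome 19. Hence the members differed more in the covered length of the last exon than in the presence of a peak.

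**Figure D3:**
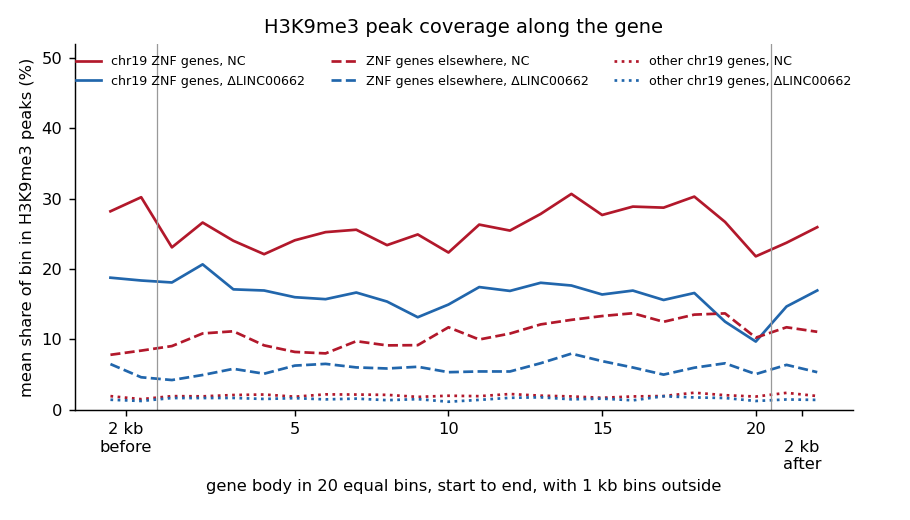
Mean percent of each bin in H3K9me3 peaks, with the gene body in 20 equal bins from start to end and 1 kb bins outside, for chromosome 19 ZNF genes (solid), ZNF genes elsewhere (dashed) and other chromosome 19 genes (dotted) in NC (red) and ΔLINC00662 (blue). In the last bin of the body the chromosome 19 ZNF genes stand at 21.8% in NC and 9.70% in ΔLINC00662, and in the first bin at 23.1 and 18.1%.

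Of the NC peaks of members, 62.8% had their summit in an intron, 14.02% at a promoter and 10.02% in the last exon, and in ΔLINC00662 the share in the last exon was 8.27%. Over all GC contents, fewer of the peaks with their summit in the last exon were found again. Of 228 such NC peaks 48.7% were retained (Wilson 95% interval 42.3 to 55.1%), against 59.8% of 1429 intron peaks (57.2 to 62.3%) and 68.03% of 319 promoter peaks (62.7 to 72.9%). When the NC list was cut into 10 groups by strength, in the strongest 2 groups last exon peaks were retained in 74.1% (63.6 to 82.4%) and intron peaks in 78.5% (74.2 to 82.2%), which the intervals do not separate. In the weaker 5 groups the shares were 28.9% (19.96 to 39.96%) and 48.3% (44 to 52.6%). The difference also depended on the GC content of the peaks. When the members' NC peaks were put into 5 groups by GC content, the last exon share was the lower in the group of 31.3 to 45.8% GC, at 34.5% of 116 peaks (Wilson 95% interval 26.5 to 43.5%) against 56.9% of 346 intron peaks (51.7 to 62.0%). In the next group it was 55.6 against 62.7%, and in the 3 groups of higher GC content it was above that of introns, at 68.8 against 65.4%, 65.2 against 54.7% and 75 against 59.0%, with overlapping intervals and 32, 23 and 12 last exon peaks. At 78 paired peaks with a last exon summit the median log2 ratio of fold enrichment was −0.15, and 60.3% of them were lower in ΔLINC00662. At 673 intron pairs the median was 0.036 and 47.4% were lower. The local input at last exon summits was at the genome-wide level (median ratio 1.00), and at intron summits it was 1.21 times that level.

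GC content moved with the loss. Last exon peaks of NC had a median GC content of 45.6% and intron peaks of 48.4%, so the covered length of both features was also compared in 500-base windows of like GC content. Below 35% GC, where little was covered in NC, the ratio of covered base pairs was 0.194 for last exons (2.38 to 0.462%) and 0.454 for introns (1.69 to 0.769%). In windows of 35 to 40% GC the ratio of covered base pairs was 0.136 for last exons (14.6 to 1.98%) and 0.392 for introns (8.23 to 3.22%). At 40 to 45% it was 0.322 (46.1 to 14.9%) and 0.566 (24.1 to 13.7%), at 45 to 50% it was 0.555 (59.9 to 33.2%) and 0.778 (33.3 to 25.9%), and at 50% and over it was 0.727 and 0.871. From 35% GC upward the ratio was higher at higher GC content in both features, and the windows below 35% did not follow this order. In each of the 5 GC groups the ratio of covered length was lower in last exons, unlike the retention of peaks above. Below 50% GC, last exons were also covered more than introns of like GC content in NC. The part of GC content in the result was not tested beyond this.

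**Figure D4:**
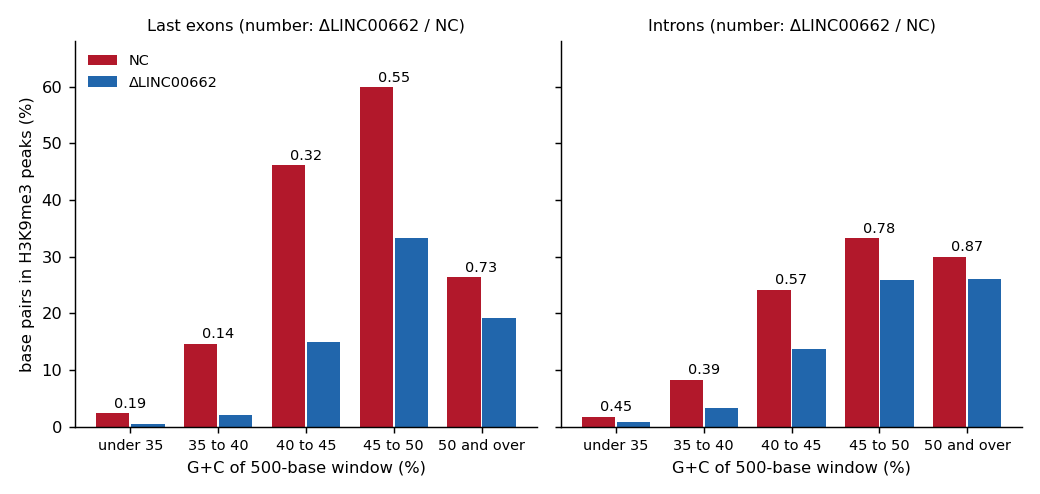
Percent of base pairs in H3K9me3 peaks in 500-base windows grouped by GC content, for last exons (left) and introns (right) of the 249 genes, in NC (red) and ΔLINC00662 (blue), with the ratio above each pair. At 40 to 45% GC the ratio is 0.322 in last exons and 0.566 in introns, and in every group it is lower in last exons.

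The same order was seen in ZNF genes of other chromosomes, which were not among the members. Their last exons were covered over 17.2% in NC and 6.01% in ΔLINC00662 (ratio 0.350), and their introns over 5.75 and 3.32% (0.578). In other genes of chromosome 19 the ratio was 0.742 for last exons, from 2.66 to 1.97%, and 0.670 for introns. Over all protein-coding genes the ratios were close, 0.541 for last exons (2.08 to 1.13%) and 0.555 for introns (1.58 to 0.878%). Against these, the members had a lower ratio in last exons (0.393) and a higher one in introns (0.690).

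Clusters differed in how far this held. Of the 11 clusters with H3K9me3, 8 had a lower ratio in last exons than in introns and 3 a higher one. The lowest last exon ratio was in cluster 3, where coverage went from 47.0 to 7.67% (0.163) while that of introns went from 36.3 to 22.96% (0.632). In cluster 4 (ZNF101 to ZNF486) the introns were covered alike in both lists, 15.3 and 15.5%, but the last exons over 21.2 and 8.20%. Cluster 11 (ZNF787 to ZNF835) went the other way, with 12.1 and 12.4% in last exons and 18.2 and 10.4% in introns. Clusters 1 and 6, with 5 members each, also had the higher ratio in last exons. Cluster 12 retained the largest share of its NC peaks, 71.0% of 238 (Wilson 95% interval 64.9 to 76.4%), and the other clusters between 52.2 and 63.6%.

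**Figure D5:**
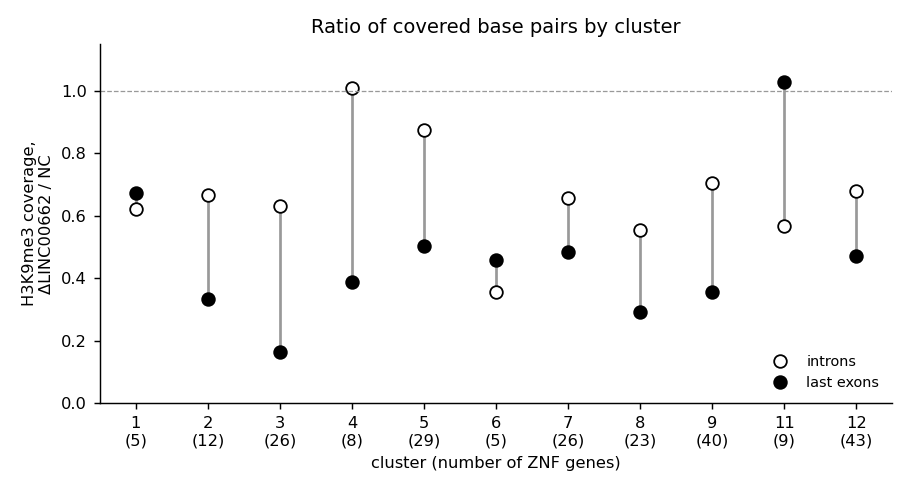
Ratio of base pairs in H3K9me3 peaks, ΔLINC00662 to NC, in last exons (filled) and introns (open) of the members of each cluster, with the number of members in brackets and the dashed line at equality. The filled point is the lower in 8 of the 11 clusters, with the lowest at 0.163 in cluster 3 and the highest at 1.03 in cluster 11.

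Peaks found in ΔLINC00662 alone differed in share between clusters. They made up 44.3% of the ΔLINC00662 peaks of cluster 4 and 39.4% of those of cluster 5, which was not above the 44.4% of the whole list or, for cluster 5, the 40.9% of chromosome 19 outside the members. The other clusters with H3K9me3 were lower, among them cluster 12 with 11.6% and cluster 3 with 13.1%. Clusters 4 and 5 lie at 19.8 to 20.3 and 20.7 to 24.3 Mb and include the genes ZNF93, ZNF43 and ZNF91. The LINC00662 gene lies on the same chromosome at chr19:28171980-28284913, and cluster 5 is the nearest cluster, at a distance of 3.86 Mb. The member before it, ZNF254, had 12 H3K9me3 peaks over 6.94% of its span in NC and 5 over 2.398% in ΔLINC00662. The member after it, ZNF536, had 5 and 1. Cluster 6 (ZNF302 to ZNF792), the nearest on the other side at 6.88 Mb, had 26.1% of peaks in ΔLINC00662 alone, of 23.

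H3K27me3 was rare on these genes. It overlapped 22 members in NC (8.84%), 16 members upon depletion of LINC00641 (6.43%) and 7 upon depletion of SETD5-AS1 (2.81%), against 15.7, 16 and 15.9% of all protein-coding genes. In other genes of chromosome 19 the shares were 17.7, 18.0 and 16.6%, and in ZNF genes elsewhere 9.74, 8.61 and 7.87%. The number of their peaks was 38 in NC, 22 upon depletion of LINC00641 and 10 upon depletion of SETD5-AS1. The NC peaks were somewhat weaker than those of the whole NC list, with a median of 16 summit fragments against 18. Their median −log10 q was 3.21 against 3.72. The strongest summit of a member had 12 to 33 fragments in NC (median 17.5). Of the 22 members marked in NC, 21 also carried an H3K9me3 peak in NC, as did 88.4% of all 249 members. An H3K27me3 peak lay at a promoter in 9 of the 22, against 2051 of the 3148 protein-coding genes marked in NC. They lay in cluster 9 (7 members), cluster 3 (6), cluster 4 (3), 1 each in clusters 5, 7, 8 and 11, and outside clusters (2).

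Few of the H3K27me3 peaks were found again. Of the 38 NC peaks, 7 overlapped a ΔLINC00641 peak (18.4%, Wilson 95% interval 9.22 to 33.4%) and 3 a ΔSETD5-AS1 peak (7.89%, 2.72 to 20.8%), against 53.2 and 56.3% over the whole list. Both comparisons share the NC list. In ZNF genes elsewhere the shares were 38.03 and 41.3%. Averaged over 10 strength groups with the weights of the members, the shares were 54.5 and 53.6% on chromosome 19 outside the members. Outside chromosome 19 they were 46.8 and 50.2%. Peak density was not matched. ΔLINC00641 and ΔSETD5-AS1 peaks numbered 2.63 and 1.19 per Mb in members, against 22.6 and 24.8 over all protein-coding genes. The part of density in the low retention was not tested. At a −log10 q of at least 5 only 5 NC peaks, in 6 members, were left, so retention could hardly be measured. ZNF558, ZNF439, ZNF90, ZNF578 and ZNF667 were marked in all 3 lists. The largest shares in NC were in ZNF415 (7.07% of the span), ZNF347 (5.29%), ZNF558 (4.52%) and ZNF667 (4.48%). ZNF415 and ZNF347 overlap each other, and ZNF415 had 4 peaks in NC and none in the other lists. ZNF347 had 4 NC peaks, 1 ΔLINC00641 peak and 0 ΔSETD5-AS1 peaks. ZNF558 was covered over 4.52, 5.45 and 2.26% in NC, ΔLINC00641 and ΔSETD5-AS1, and ZNF667 over 4.48, 3.54 and 5.44%. These 2 members thus had covered shares of the same order in all 3 lists, though not always at the same sites. The strongest peak of ZNF558 lay at a different place in each list. That of ZNF667 overlapped between NC and ΔSETD5-AS1 but lay elsewhere in ΔLINC00641.

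Other C2H2 zinc finger genes of the chromosome, which do not bear a ZNF symbol, were described from a list of 15, of which 14 were matched by symbol (ZFP112 was not). An H3K9me3 peak was present in 12 of the 14 in NC and in 13 in ΔLINC00662, and a last exon peak in 10 and 7. The last exon of ZSCAN1 was covered over 90.1% in NC and 72.1% in ΔLINC00662, and that of ZIK1 over 46.1 and 53.8%. PEG3, an imprinted gene, had 8.51% of its last exon covered in NC and 0% in ΔLINC00662. Among 16 genes of the silencing pathway itself, 7 had an H3K9me3 peak in NC and 4 in ΔLINC00662, a share near the 34.9 and 30% of all protein-coding genes, and none had 1 in its last exon. TRIM28, which also lies on chromosome 19, had no peak in either list, and SETDB1 had 2 peaks in NC and 1 in ΔLINC00662.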

How the data were processed

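H3K27me3 and H3K9me3 ChIP-seq peaks of HEK293T cells were taken from 5 lists, 1 for each ChIP group of 3 replicates, grouped by sample titles. The authors used Cutadapt 3.3 for trimming, Bowtie2 2.4.2 for alignment to hg19 and GATK for duplicates, and ran MACS2 2.2.7.1 on merged replicates against merged input. The deposited fold enrichment is a ratio of summit fragments to local input, and the authors also deposited a −log10 p-value and a −log10 q-value for each peak. Signal tracks were not analysed here.

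Fragments and local input at each summit were solved from fold enrichment and p-value, and for 100% of peaks a whole number of fragments gave back the deposited −log10 p within 0.001 (in proportion more for values above 100). The lowest local input is the genome-wide level of a list, and depth was estimated from it with the shortest peak as fragment length. The median summit held 18 to 22 fragments, so weak peaks are imprecise. Genes came from GENCODE 44 lifted to GRCh37, whose coordinates are those of hg19. The last exon is that of the canonical transcript. Retained peaks share 1 bp or more with the other list, and pairs are peaks with 1 partner in both directions. Zinc fingers (cysteines 2 to 4 residues apart, 12 residues, histidines 3 to 5 apart) and KRAB-like patterns (in the first 250 residues) were counted in the translated canonical GENCODE coding sequence, in place of the RefSeq protein that was planned, and ZNF274, whose lifted sequence lost its frame, was read in all 3 frames. The members, gene lists and measures were chosen with earlier results of these data known. The named genes are the 8 members most covered by H3K9me3 in NC, the 5 with the strongest NC peak, the 4 most covered by H3K27me3, the 3 with the lowest and the 3 with the highest retention, 6 with known roles, and the members next to LINC00662. Ties were taken by symbol, and others were named after their values were seen. Wilson 95% intervals were used. The settings varied were a minimum −log10 q of 5 (for all peaks, or just for those looked up), an overlap of 50% or more, lists cut to the same length by strength, the gene span alone, removal of peaks whose local input exceeded the genome-wide level 5 times, addition of other C2H2 genes, merging within 1 kb, last exons of all transcripts, and cluster gaps of 100 and 500 kb. Scripts ran in Python 3.11.15 with Biopython 1.88, scipy 1.17.1, pandas 2.3.3 and numpy 2.4.6, and the functions were tested on simulated data.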

Additional observations from a re-analysis of the deposited data

How the results depend on the processing

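Of 67 values under alternative settings, 37 stayed within the counting interval of the main value (for counts of genes and clusters, within 1.5 times) and 30 moved. For covered shares and coverage ratios this interval counts single base pairs as separate draws. It is so narrow there that small shifts were counted as moved, and the tally says little about those values. With lists cut to the same length by strength, 2 of the moved values crossed the value of no change. They were the ratio of peak numbers (0.840 to 1.04, 95% counting interval 0.978 to 1.11) and the median log2 ratio of fold enrichment (0.026 to −0.046). No list by replicate was used, so no replicate was left out. No paired analysis was possible because each list is 1 call on merged replicates. The alternatives on last exon and intron ratios were chosen after seeing the data.

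At a minimum −log10 q of 5, the span share covered by H3K9me3 in NC was 14.7% (22.7% as deposited), the last exon share 21.0% (29.05%), the ratio of peak numbers 0.768, retention 42.4%, the share of ΔLINC00662 peaks without an NC peak 39.2%, members with H3K27me3 in NC 6 (22), and retention of H3K27me3 peaks 0% for ΔLINC00641 and 0% for ΔSETD5-AS1, of 5 peaks each. The last exon and intron ratios were then 0.232 and 0.584. When only the peaks asked about had to pass, retention was 71.5%, the share without an NC peak 14.9% and retention in ΔSETD5-AS1 0%. At an overlap of 50%, retention was 38.2% for H3K9me3 and 7.89% for ΔLINC00641, and the share without an NC peak was 31.6%. With lists cut to the same length by strength, retention was 64.1%, and the last exon and intron ratios were 0.432 and 0.789. Merging within 1 kb gave a ratio of peak numbers of 0.980 and a retention of 67.6%. With other C2H2 genes added, the span and last exon shares were 22.6 and 28.5%, and the last exon and intron ratios 0.404 and 0.695. With the gene span alone the span share was 22.3%. With last exons of all transcripts the last exon share was 27.7% and the ratio 0.423. The last exon ratio stayed below the intron ratio under each alternative run for both. The number of clusters was 13 at 100 kb and 10 at 500 kb, against 12. The cause of these shifts was not tested. The H3K27me3 peaks of these genes were few and had low fragment numbers, and without replicate lists no difference between groups can be set against replicate error.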
